A study of Mus musculus with 6 samples.

Results

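The serotonin receptor genes described here are 10 listed Htr genes: Htr1a, Htr1b, Htr1d, Htr1f, Htr2a, Htr2c, Htr3a, Htr4, Htr6 and Htr7. They were chosen by gene symbol and matched to Ensembl identifiers, and 10 of 10 were found among the 55335 genes of the count files. Striatum, the forebrain nucleus that takes up cortical, thalamic and dopaminergic input, was profiled by RNA-seq in C57 mice. A group of 3 samples carried the genotype label of PDE5A overexpression, PDE5A being an enzyme that breaks down cyclic GMP, and was set against 3 control samples with the genotype label WT and NC in their titles. Not given in the sources used here are the age and sex of the mice, how PDE5A was overexpressed, in which cells, and what the controls received. The labels do not tie each sample to a separate animal, so a p-value here measures the spread from sample to sample, part of which may be technical.

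Serotonin reaches the striatum along axons whose cell bodies lie in the raphe nuclei of the brainstem and is sensed there by receptors on striatal neurons and on the terminals of incoming axons. The receptors fall into classes by what they couple to. The Htr1 receptors couple to inhibitory Gi proteins and lower cyclic AMP, the Htr2 receptors couple to Gq and phospholipase C, Htr4, Htr6 and Htr7 couple to stimulatory G proteins and raise cyclic AMP, and Htr3a encodes a subunit of a ligand-gated cation channel. Medium spiny neurons, which make up most of the striatum's neurons, carry several of these receptors, and others are better known from neighbouring cortex or from the choroid plexus.

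None of the 10 receptor genes passed the test between overexpression and control, and the groups overlapped for 10 of 10. What varied was the level from library to library within each group. Htr1b varied with the markers of medium spiny neurons, Htr1a and Htr2a varied with the markers of cortical glutamatergic neurons, and Htr2c had its highest level in the library with the most choroid plexus transcript. Per exon length, Htr1b, Htr2c and Htr2a were the receptor transcripts with the highest mean levels.

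The libraries held 33013698 to 39271447 counts in overexpression and 40653784 to 42288789 in control. Pde5a itself averaged 684 ± 85.4 CPM (counts scaled to a common library total) in overexpression and 4.65 ± 1.26 CPM in control (SD, n = 3 each). Each of the 3 overexpression libraries lay above each of the 3 control libraries, as their labels say, with an exact two-sided permutation p of 0.1, the lowest possible with groups of this size. Markers of the labelled tissue were abundant: 12 of 12 shared medium spiny neuron markers were tested, and their summed level ran from 5017 to 10196 CPM in overexpression and from 5954 to 10262 CPM in control. Markers of cortical glutamatergic neurons, 12 of 12 tested and none at 0, summed to 439 to 1418 CPM in overexpression and 248 to 1118 CPM in control. Choroid plexus markers, 15 of 15 tested, summed to 545, 2525 and 37.3 CPM in overexpression replicates 1 to 3, and to between 55.9 and 77.0 CPM in control. In bulk tissue, fewer cells of a type and less RNA per cell cannot be told apart.

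The comparison between groups was made with edgeR's quasi-likelihood test over 19809 genes, with Benjamini-Hochberg adjustment and a threshold of an adjusted p of 0.05. In that test 0.00505% of all genes were called, a single gene, Pde5a, and 0 of the 10 receptor genes, all of which had passed the filter on low counts. At an unadjusted p under 0.05 the count was 0 of 10, beside 3.89% of all genes. The DESeq2 Wald test called 0 of 10 beside 0.419%, and limma-voom called 0 of 10 beside 0.0303%. The groups of 0 receptor genes were separate, beside 8.93% of all genes (4.81% with overexpression higher and 4.11% with overexpression lower). Of the receptor genes, 5 had positive and 5 had negative fold changes, with a median of 0.01 on the log2 scale beside 0.00 over all genes. Each of the 10 had an adjusted p of 1.0 in edgeR's test, and each 95% interval of the fold included no change. The widest intervals of the fold were those of Htr1a, from 0.484 to 2.42, of Htr1d, from 0.512 to 2.15, and of Htr3a, from 0.463 to 1.96.

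**Figure D1:**
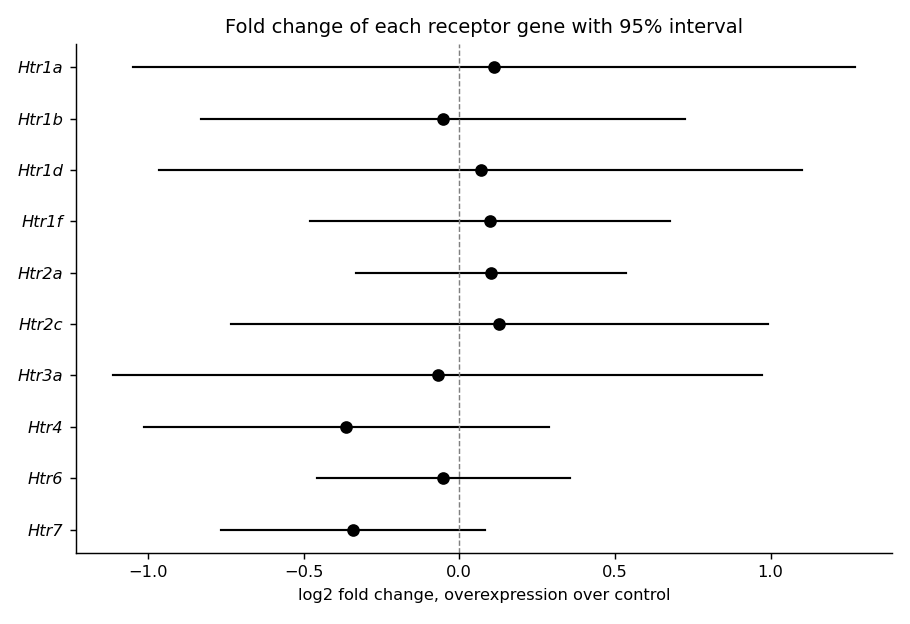
Log2 fold change of each receptor gene, overexpression over control, with its 95% interval from edgeR's quasi-likelihood fit of 3 overexpression and 3 control samples. The interval of every one of the 10 genes crosses 0, and the narrowest are those of Htr6, Htr7 and Htr2a, with standard errors of 0.18.

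Among the Gi-coupled receptors, Htr1b had the highest level per length. It acts on the axon terminals of neurons, including medium spiny neurons, where it dampens transmitter release. It occupies 81628291 to 81633828 of chromosome 9 (minus strand) in mm10. Htr1b had 55.3, 46.6 and 27.9 CPM in overexpression replicates 1 to 3, against 42.1, 59.3 and 33.2 CPM in control replicates 1 to 3. Both groups ran over nearly the same span, with overexpression replicate 3 lowest and control replicate 2 highest. The log2 fold change was −0.05 (SE 0.32), with a 95% interval from −0.83 to 0.72. An antisense gene, D430036J16Rik, shares 852 bases of exon with Htr1b and had 232 to 433 counts in the libraries, where Htr1b had 1048 to 2433. Since the strand setting of the counting is not given, reads in the shared stretch cannot be assigned with certainty.

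Htr1d encodes a close relative of the Htr1b receptor with similar coupling, and occupies 136423524 to 136444398 of chromosome 4 (plus strand). It had 10.1, 11.4 and 6.77 CPM in overexpression, against 9.03, 13.7 and 4.30 CPM in control. The control samples spread over more than 3-fold, and the overexpression samples lay inside that span. Its log2 fold change was 0.07 (SE 0.42).

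Htr1a encodes the inhibitory receptor that serotonergic neurons use as an autoreceptor and that cortical, septal and hippocampal neurons carry as a receiving receptor. It occupies 105443639 to 105448122 of chromosome 13 (plus strand). Htr1a had 3.97, 6.88 and 9.97 CPM in overexpression, against 6.70, 3.14 and 9.42 CPM in control. The order of the libraries was close to the reverse of that of Htr1b: overexpression replicate 3 and control replicate 3 were highest, and control replicate 2 was lowest. The log2 fold change was 0.11 (SE 0.48), with a 95% interval from −1.05 to 1.27. Htr1f, a further Gi-coupled receptor and the target of the migraine drug lasmiditan, occupies 64924729 to 65105854 of chromosome 16 (minus strand). It had 2.61, 1.95 and 3.36 CPM in overexpression, against 2.86, 2.02 and 2.52 CPM in control, a narrow spread in which neither group stood apart, with a log2 fold change of 0.10 (SE 0.25).

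**Figure D2:**
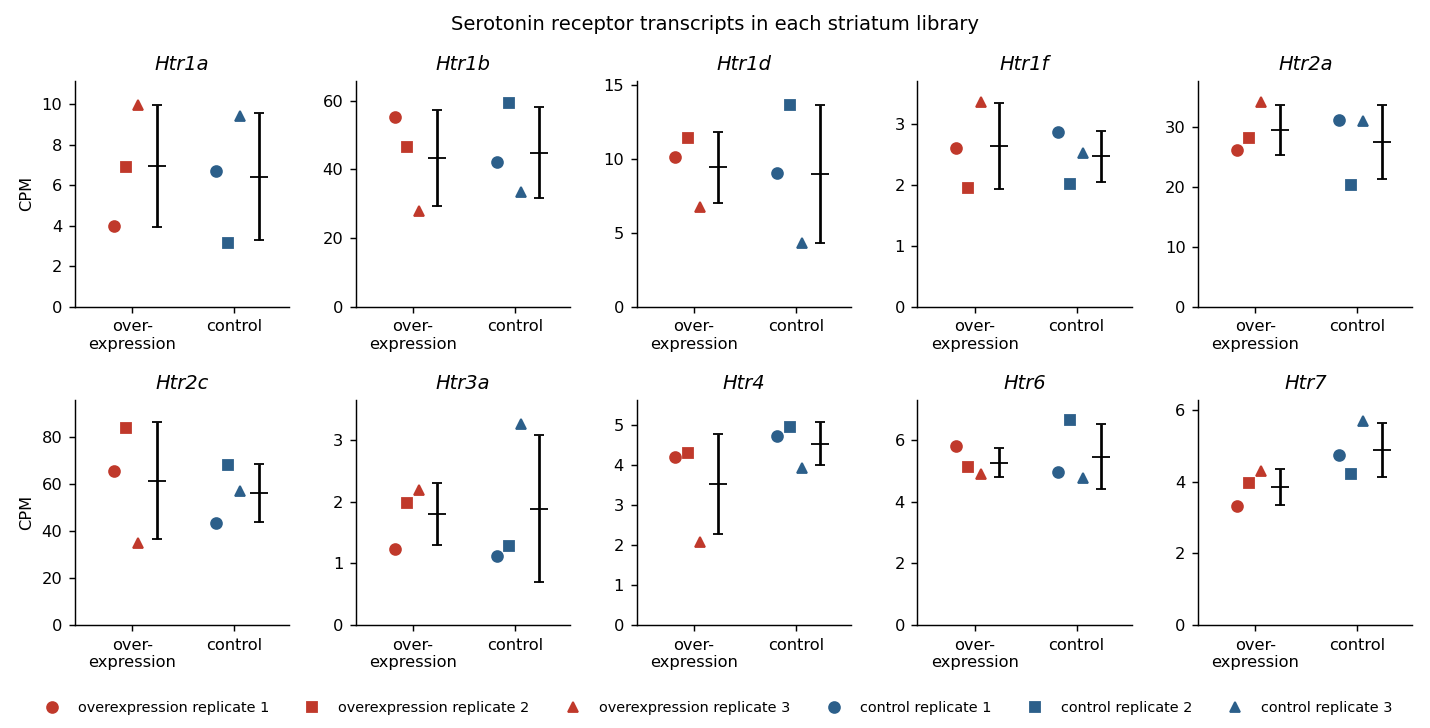
CPM of each of the 10 receptor genes in each library, with each group's mean and SD to the right of its points (n = 3); circles, squares and triangles are replicates 1, 2 and 3. The groups overlap for every gene, and the triangle of overexpression replicate 3 lies at the low end for Htr1b, Htr2c and Htr4 and at the high end for Htr1a and Htr2a.

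Per union exon length, both Gq-coupled receptors ranked directly behind Htr1b. Htr2c, known for RNA editing of its transcript and for its high expression in choroid plexus epithelium, occupies 146962513 to 147197277 of chromosome X (plus strand). Htr2c had 65.5, 83.7 and 34.6 CPM in overexpression, against 43.1, 68.1 and 56.8 CPM in control. The overexpression samples held both the highest and the lowest value of the 6. The log2 fold change was 0.13 (SE 0.35), with a 95% interval from −0.73 to 0.99. Htr2c also hosts small RNA genes in its introns, and of its 7 listed miRNA genes Mir448, Mir764, Mir1264 and Mir1912 had 0 counts in every library, while Mir1298, Gm22650 and Gm24627 had at most 1, 2 and 12. Libraries of this kind are not made to capture RNAs of that length.

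The library highest in Htr2c was also the highest in choroid plexus markers, and no correlation between them was computed. Ttr, the thyroid hormone carrier made by choroid plexus epithelium, had 481, 2241 and 22.5 CPM in overexpression, against 48.4, 32.6 and 35.7 CPM in control. Overexpression replicate 2 was highest and overexpression replicate 3 lowest for both genes, whereas control replicate 2 had 68.1 CPM of Htr2c with 32.6 CPM of Ttr. Without overexpression replicates 1 and 2, the pair high in choroid plexus markers, the log2 fold change of Htr2c was −0.70 (SE 0.27), the direction being turned. That fit rests on a single overexpression sample, replicate 3, which is assumed to vary like the others. Of the 6 libraries, that sample was also highest in cortical glutamatergic markers (5.80 log2 CPM) and lowest in shared medium spiny neuron markers (8.24 log2 CPM). These differences cannot be told apart in that fit. With the mean level of the choroid plexus markers as a covariate in all 6 libraries, the log2 fold change of Htr2c was −0.47 (SE 0.29).

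Htr2a, the receptor through which classical psychedelics act and a transcript typical of cortical pyramidal neurons, occupies 74640840 to 74709494 of chromosome 14 (plus strand). It had 26.1, 28.1 and 34.1 CPM in overexpression, against 31.0, 20.3 and 31.0 CPM in control. Control replicate 2 stood below the other 5 libraries. The log2 fold change was 0.10 (SE 0.18), with a 95% interval from −0.33 to 0.53, among the narrowest of the family.

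Of the receptors coupled to stimulatory G proteins, Htr6 had the highest level per union exon length and Htr4 the lowest. Htr6, which is enriched in medium spiny neurons and sits on the primary cilium, had 5.796, 5.11 and 4.88 CPM in overexpression, against 4.96, 6.65 and 4.75 CPM in control. It was the steadiest of the family, with a ratio of 1.40 between its highest and lowest library, and its log2 fold change was −0.05 (SE 0.18). Htr6 occupies 139061108 to 139075570 of chromosome 4 (minus strand). Htr7, a receptor prominent in thalamus and hippocampus, had 3.32, 3.97 and 4.29 CPM in overexpression, against 4.74, 4.21 and 5.71 CPM in control. The groups met only at overexpression replicate 3 and control replicate 2. In edgeR's fit of all 6 libraries without a covariate, Htr7 had the smallest p of the family, 0.0995 unadjusted in the quasi-likelihood test. Its log2 fold change was −0.34 (SE 0.18), with a 95% interval from −0.77 to 0.08. Htr7 occupies 35958734 to 36057507 of chromosome 19 (minus strand). Thalamic neuron markers, 8 of 8 tested and none at 0, had negative fold changes for 7 of 8 and summed to 69.3 to 82.8 CPM in overexpression and to 92.6 to 122 CPM in control, and their part in the Htr7 values was not tested.

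Htr4, known from its high expression in the striatum and from its interest as a target for cognition, occupies 62324204 to 62496577 of chromosome 18 (plus strand). It had 4.20, 4.30 and 2.08 CPM in overexpression, against 4.72, 4.94 and 3.93 CPM in control. Overexpression replicate 3 was lowest by a wide margin, and the other overexpression replicates lay within the control range. The log2 fold change was −0.36 (SE 0.28), the most negative of the family, with a 95% interval from −1.01 to 0.29. It was −1.12 (SE 0.26) without overexpression replicates 1 and 2, where overexpression replicate 3 alone remained, with its high cortical and low medium spiny neuron markers. The log2 fold change was −0.85 (SE 0.27) with the choroid plexus level as covariate, and −0.09 without overexpression replicate 3. In the covariate fit Htr4 had an unadjusted p of 0.0183 and an adjusted p of 0.959 in edgeR's quasi-likelihood test. There 1 of the 10 receptor genes had an unadjusted p under 0.05, beside 873 of all 19809 genes. Htr3a, the channel subunit and a marker of a class of cortical GABAergic interneurons, occupies 48899213 to 48911099 of chromosome 9 (minus strand). It had 1.24, 1.98 and 2.19 CPM in overexpression, against 1.12, 1.29 and 3.26 CPM in control. A single library, control replicate 3, carried the highest value, and the log2 fold change of −0.07 (SE 0.45) became 0.58 without it.

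Levels of different genes were compared as CPM per kilobase of exon, the union of all annotated exons. On this scale Htr1b averaged 9.16 ± 2.96 in overexpression and 9.50 ± 2.80 in control, Htr2c averaged 6.57 ± 2.66 in overexpression and 6.004 ± 1.34 in control, and Htr2a averaged 5.25 ± 0.744 in overexpression and 4.89 ± 1.10 in control (SD, n = 3 each). Of the 10 listed genes, Htr1d, Htr6, Htr1a and Htr7 followed, with means over the 6 libraries of 2.88, 2.29, 1.49 and 1.29. Htr5a, a receptor gene outside the list, averaged 1.95, between Htr6 and Htr1a, and is not ranked here. Htr1f, Htr3a and Htr4 came last, with 0.990, 0.887 and 0.821. The spread over libraries overlapped for each of the 9 pairs of neighbours in this order, although Htr1b exceeded Htr2c in 6 of 6 libraries. Htr2a exceeded Htr1d in 5 of 6 and Htr1d exceeded Htr6 in 5 of 6, while Htr3a and Htr4 changed places from library to library. The first places depend on the length used: with the longest transcript Htr2c averaged 12.01 and Htr1b 9.33 per kilobase, since the annotated exons of Htr2c span 9328 bases in union and 4883 in the longest transcript. With coding length alone 2 of the 10 places were the same as in the union order, and Htr2c, Htr1b and Htr2a were again the first 3.

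**Figure D3:**
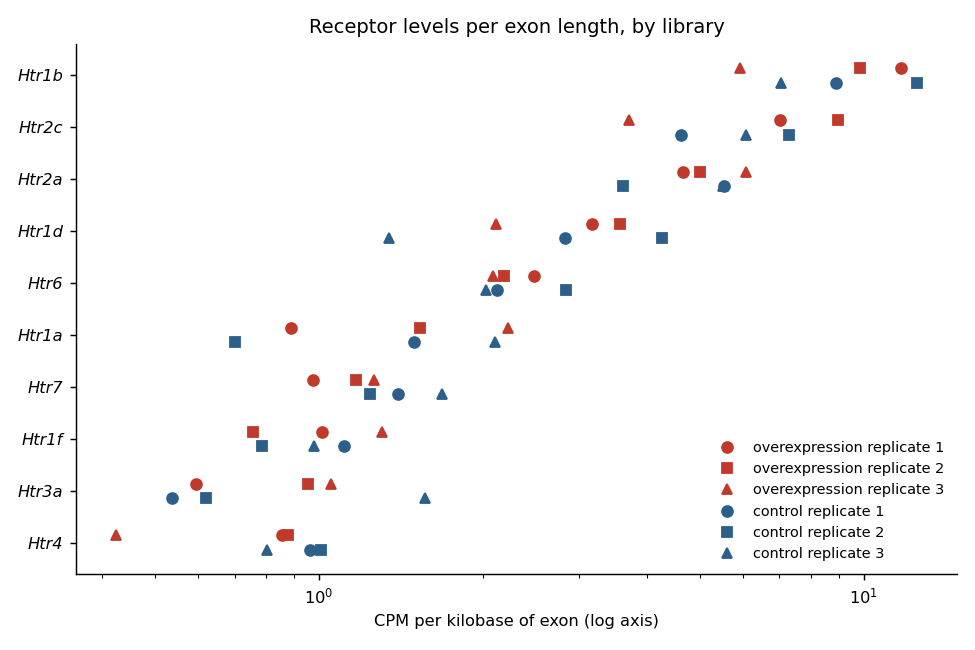
CPM per kilobase of union exon length for each receptor gene in each library, on a log axis, ordered by the mean over 6 libraries. Htr1b, Htr2c and Htr2a lie above 3.6 in every library, and the spans of neighbouring genes overlap throughout.

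Of the summed level per length of the 10 genes, the Gi-coupled receptors took 46.5 ± 3.31% in overexpression and 46.8 ± 6.73% in control (SD, n = 3 each). Htr5a, also Gi-coupled, is not part of that sum. The Gq-coupled receptors took 37.5 ± 2.55% in overexpression and 35.2 ± 4.34% in control. Htr4, Htr6 and Htr7 together took 13.1 ± 1.165% in overexpression and 15.1 ± 0.459% in control. The share of those last 3 genes was 12.9%, 12.1% and 14.4% in overexpression, against 15.2%, 14.6% and 15.5% in control. The groups were thus separate by a small margin, with no test made of a sum over chosen genes. For the shares of the Gi-coupled receptors, the Gq-coupled receptors and the channel subunit Htr3a the groups overlapped. In CPM the groups of Htr4, Htr6 and Htr7 each overlapped, and 8.93% of all genes were separate. Single genes shifted more between libraries: Htr1b took from 22.6% to 35.9%, Htr2a from 10.4% to 23.2%, and Htr1a from 2.01% to 8.50%.

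The differences between libraries had a pattern that ran across both groups. The log2 CPM of 6 of the 10 receptor genes spanned more than 1 over the 6 libraries, as it did for 12.2% of the 16040 genes averaging at least 1 CPM. The mean level of the cortical glutamatergic markers was 4.15, 4.73 and 5.799 log2 CPM in overexpression replicates 1 to 3, against 4.75, 3.06 and 5.39 in control replicates 1 to 3. The shared medium spiny neuron markers had 9.22, 8.84 and 8.24 log2 CPM in overexpression, against 8.81, 9.21 and 8.44 in control. The groups overlapped in both levels. Fold changes were positive for 12 of 12 cortical markers, with a median of 0.35 on the log2 scale beside 0.00 over all genes. For the shared medium spiny neuron markers 3 were positive and 9 negative, with a median of −0.03. Libraries high in one list were low in the other, with Pearson's r of −0.92 (exact permutation p 0.00972) and Spearman's rho of −0.94 (exact permutation p 0.0167) over 6 libraries.

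Each receptor gene was set against both marker levels, which made 20 relations over the 6 libraries. Htr1a rose with the cortical level, with Pearson's r of 0.97 and Spearman's rho of 0.94 (exact permutation p 0.00278 and 0.0167, adjusted over the 20 relations to 0.0185 and 0.0667). Htr2a did so with an r of 0.97 and a rho of 0.94 as well, with the same p-values. Leaving out control replicate 2 and overexpression replicate 3, the libraries farthest from the median cortical level, r was 0.98 for Htr1a and 0.83 for Htr2a. Htr1b went the other way, with an r of −0.94 and a rho of −1.0 (exact permutation p 0.00694 and 0.00278, adjusted to 0.0278 and 0.0556), and with an r of −0.98 without those libraries. Htr6 also fell as the cortical level rose, by a smaller amount, with an r of −0.94 (exact permutation p 0.00694, adjusted to 0.0278), a rho of −0.94 (exact permutation p 0.0167, adjusted to 0.0667), and an r of −0.94 without them.

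Against the medium spiny neuron level, Htr1b had an r of 0.99 and a rho of 0.94 (exact permutation p 0.00278 and 0.0167, adjusted to 0.0185 and 0.0667), with an r of 0.99 when overexpression replicates 1 and 3, the farthest from the median, were left out. Htr1a had an r of −0.95 and a rho of −0.89, and Htr2a an r of −0.85 and a rho of −0.89 (exact permutation p of r 0.0111 and 0.0167, adjusted to 0.0370 and 0.0476, and of rho 0.0333 for both, adjusted to 0.0741). Without those libraries their r was −0.96 and −0.87. In all, 7 of the 20 relations had an adjusted p under 0.05 by Pearson's r and 0 by Spearman's rho, whose smallest adjusted value was 0.0556. With 6 libraries the exact permutation p of rho cannot be under 0.00278. The rho of −1.0 of Htr1b, alone at that p, adjusted to 0.0556, so the count of 0 by rho says little. For the other 6 genes neither measure passed against either level. In the case of Htr1f the r of 0.66 with the cortical level rested on the libraries left out, and became −0.06 without them. Within each group of 3 the cortical order of the libraries was kept by Htr1a and Htr7 and exactly reversed by Htr1b and Htr6.

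**Figure D4:**
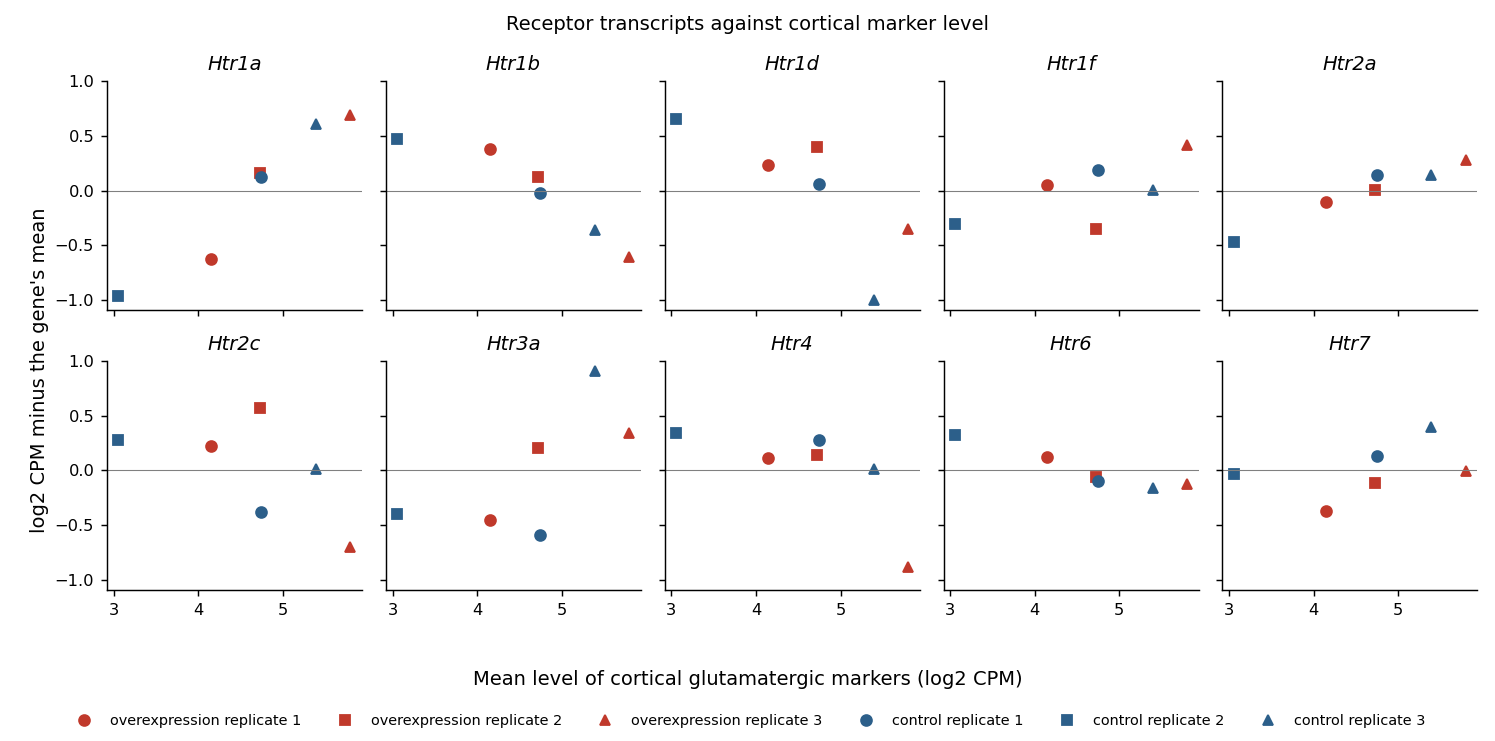
Log2 CPM of each receptor gene, less its own mean, against the mean log2 CPM of 12 cortical glutamatergic markers in each library. Htr1a and Htr2a climb from left to right (r 0.97 each), Htr1b and Htr6 descend (r −0.94 each), and overexpression and control points interleave along both slopes.

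A fit with the cortical level as a covariate gave narrower errors for the genes that moved with it. The log2 fold change was −0.18 (SE 0.15) for Htr1a, 0.15 (SE 0.10) for Htr1b and −0.01 (SE 0.08) for Htr2a, each with the direction turned and none past the threshold (adjusted p 0.998, 0.995 and 0.999 in edgeR's quasi-likelihood test). Htr7 kept its direction, at −0.43 (SE 0.17), with an unadjusted p of 0.0294 and an adjusted p of 0.857 in the same fit. In that fit 1 of the 10 receptor genes had an unadjusted p under 0.05, beside 1069 of all 19809 genes.

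The promoters of the genes that moved most clearly with these marker levels are shown, since members that vary together may be compared there. Each sequence is the 250 bases before the RefSeq start of the gene (build GRCm38.p6, written 5′ to 3′ on the gene's strand), and promoters from the RefSeq table were used for 8 of the 10 genes, Htr4 and Htr3a being the others. Capitals mark matches to a GC box (GGGCGG), a cyclic AMP response element half-site (TGACG) or a TATA box (TATAAA), each searched on both strands. The first pair is from the genes that were low in libraries rich in cortical markers, and the second from the genes that were high in them.
Htr1b (chr9:81633833-81634082, minus strand): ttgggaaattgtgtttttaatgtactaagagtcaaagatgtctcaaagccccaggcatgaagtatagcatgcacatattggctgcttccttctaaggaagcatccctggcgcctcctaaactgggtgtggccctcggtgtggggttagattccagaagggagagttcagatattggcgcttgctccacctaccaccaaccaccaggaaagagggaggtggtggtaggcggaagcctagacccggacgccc
Htr6 (chr4:139075571-139075820, minus strand): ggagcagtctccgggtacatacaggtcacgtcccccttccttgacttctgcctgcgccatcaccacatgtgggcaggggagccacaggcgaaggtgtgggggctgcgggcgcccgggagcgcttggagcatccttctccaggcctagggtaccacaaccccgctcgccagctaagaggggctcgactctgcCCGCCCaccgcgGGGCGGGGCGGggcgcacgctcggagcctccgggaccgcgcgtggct
Htr1a (chr13:105443443-105443692, plus strand): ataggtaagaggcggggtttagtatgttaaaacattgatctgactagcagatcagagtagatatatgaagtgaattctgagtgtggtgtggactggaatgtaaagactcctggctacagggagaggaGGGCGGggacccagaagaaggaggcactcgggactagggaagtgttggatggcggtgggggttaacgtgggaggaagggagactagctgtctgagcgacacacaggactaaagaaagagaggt
Htr2a (chr14:74640624-74640873, plus strand): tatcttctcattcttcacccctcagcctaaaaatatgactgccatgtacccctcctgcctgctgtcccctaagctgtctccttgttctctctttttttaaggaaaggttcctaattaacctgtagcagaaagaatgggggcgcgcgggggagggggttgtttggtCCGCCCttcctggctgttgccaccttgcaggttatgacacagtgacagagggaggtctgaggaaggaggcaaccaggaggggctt
A single GC box was found in each of the Htr1a and Htr2a windows and 3 in that of Htr6, of which a pair shares 1 base. The Htr1b window held no match of any kind. Htr6 has a second RefSeq start, whose window had no match either and is not shown. A GC box is present in 32.7% of the 32851 RefSeq promoter windows of this length, a cyclic AMP response element half-site in 17.8% and a TATA box in 12.4%.

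Genes with the most similar profile were found for the 6 receptor genes whose log2 CPM spanned more than 1, among 16039 other genes averaging at least 1 CPM. Likeness is the root mean square difference of log2 CPM over the 6 libraries, after each gene's own mean was subtracted. For Htr1b the nearest was Drd2, a dopamine receptor of indirect-pathway medium spiny neurons, at 0.03, followed by Syndig1l at 0.03 and by the potassium channel gene Kcna4 at 0.04. Drd2 had 188, 156 and 92.9 CPM in overexpression, against 148, 206 and 114 CPM in control. The counts of Htr1b were therefore a nearly fixed percentage of those of Drd2, at 29.3%, 29.8% and 30.1% in overexpression, against 28.5%, 28.8% and 29.1% in control. Each overexpression library was higher in this percentage than each control library, by a small margin that was not tested. The same percentage against Drd1, the dopamine receptor of direct-pathway neurons, was 22.2%, 23.6% and 23.3% in overexpression, against 22.5%, 23.6% and 23.6% in control. Against Drd1 the groups overlapped. Drd2 was picked as the nearest gene, so a steady percentage against it follows from that choice. These percentages are of counts and not per length, and were looked at after the values were seen. They show that the 2.12-fold span of Htr1b over the libraries was shared by both dopamine receptor genes. The other percentages taken were less steady. Htr2c ran from 29.2% to 53.6% of Drd2 over the libraries. Against Slc17a7, a cortical glutamatergic marker, Htr1a ran from 1.22% to 4.89% and Htr2a from 4.18% to 31.6%.

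Of the other 5 receptor genes compared by profile, none had so close a match. The nearest gene to Htr1a was Fam81a, at 0.08, then Ak5 and Egln3 at 0.11. Htr2c was nearest to Prrt4 at 0.11, then to Zfp976 at 0.13 and to the kinase gene Wnk4 at 0.14, while Htr4 was nearest to Gdf10, BB031773 and Klhl36 at 0.10 each. Htr3a came nearest to Gm49320 at 0.11, then to the integrin gene Itga4 and to Acot3 at 0.15. For Htr1d the nearest were Col6a4 at 0.15, Nod2 at 0.18 and Tagln at 0.19. Set against the mean levels of 14 marker lists in the same way, a step added after the values were seen, Htr1b was nearest to the shared medium spiny neuron markers at 0.05. Htr1a was nearest to claustrum and endopiriform markers at 0.31, ahead of the cortical glutamatergic markers at 0.33. Htr2a was nearest to markers of Htr3a-class GABAergic interneurons at 0.17 and of habenular neurons at 0.18, and the cortical markers were not among its nearest 2. This measure depends on the size of the swings between libraries as well as on their order, unlike the correlations above. Htr6 was nearest to direct-pathway markers at 0.16, Htr7 to Htr3a-class interneuron markers and Htr4 to cholinergic interneuron markers, both at 0.18. Htr2c was nearest to direct-pathway markers and Htr1f to other GABAergic interneuron markers, both at 0.29, Htr1d to indirect-pathway markers at 0.33 and Htr3a to habenular markers at 0.34. The cholinergic interneuron markers, 8 of 8 tested and none at 0, summed to 49.9 to 116 CPM in overexpression and to 94.3 to 165 CPM in control, with overexpression replicate 3 lowest, as for Htr4. That library was also lowest in the summed shared medium spiny neuron, direct-pathway, indirect-pathway and choroid plexus markers.

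**Figure D5:**
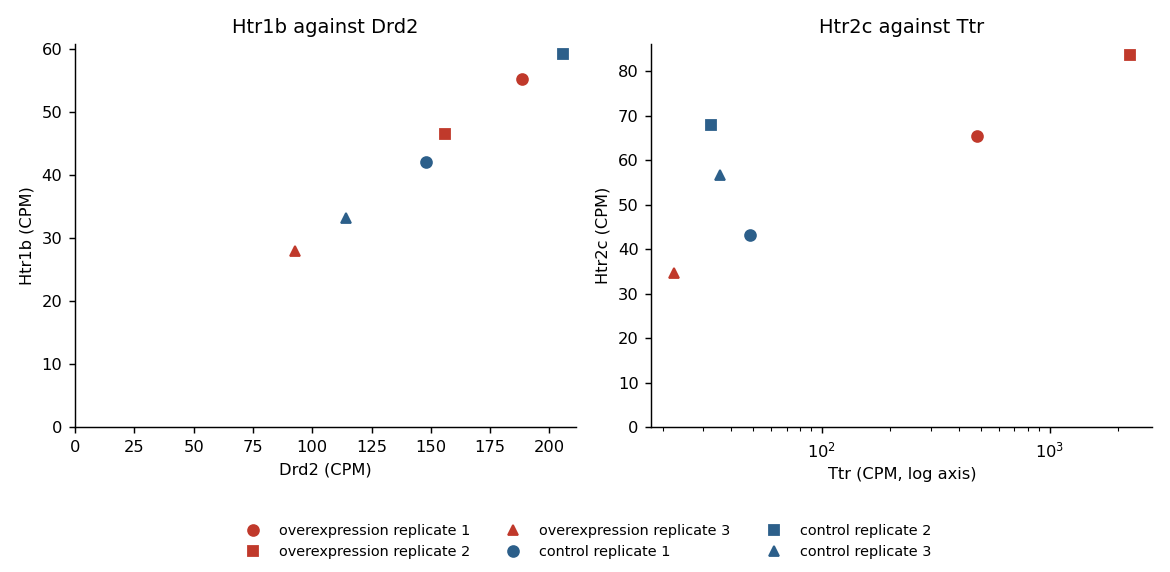
Left, Htr1b against Drd2 in CPM in each library; right, Htr2c against Ttr in CPM, with Ttr on a log axis. Htr1b lies at 28.5% to 30.1% of Drd2 in every library, while Htr2c is highest at the highest Ttr, 2241 CPM in overexpression replicate 2, and ranges from 34.6 to 68.1 CPM among the 4 libraries with Ttr under 50 CPM.

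The remaining serotonin receptor genes of the mouse were Htr5a, Htr5b, Htr2b and Htr3b. Htr5a, a Gi-coupled receptor, had 8.50, 9.53 and 14.2 CPM in overexpression, against 9.13, 8.82 and 12.7 CPM in control, with replicate 3 highest in both groups and a log2 fold change of 0.07 (SE 0.23). Htr5b, a gene known from the habenula, had 0.361 ± 0.219 CPM in overexpression and 0.581 ± 0.261 CPM in control (SD, n = 3 each). Htr2b and Htr3b did not pass the filter on low counts: Htr2b had at most 0.244 CPM, and Htr3b, the partner subunit of the Htr3a channel, had 0 counts in 4 of 6 libraries and at most 0.146 CPM.

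Among listed markers of serotonergic neurons themselves, Slc6a4, Tph2 and Fev were scarce. Slc6a4, the serotonin transporter, named after its values were seen, had 0 counts in all 6 libraries, which allows up to 0.0902 CPM in the shallowest of them. Such limits cover counting error only. Tph2, the neuronal enzyme that makes serotonin, had 1.52, 0.631 and 0.667 CPM in overexpression, against 0.620, 1.05 and 1.01 CPM in control, and the serotonergic transcription factor Fev had at most 0.133 CPM. Of the 8 serotonergic neuron markers, 3 passed the filter on low counts, and the 8 summed to 5.77 to 6.56 CPM in overexpression and to 4.96 to 6.08 CPM in control. Most of that sum came from Gata2 and En2, named here after their values were seen. Gata2 had 1.79 to 3.44 CPM and En2 had 2.08 to 2.56 CPM over the libraries, both above Tph2 in each.

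The wider pathway showed no called gene either. Of 47 listed genes (other receptors, synthesis and transport, G proteins and effectors, and receptor partners), 43 were tested and 0 passed in edgeR's quasi-likelihood test, beside 0.00505% of all genes, with 0 at an unadjusted p under 0.05, beside 3.89%. The DESeq2 Wald test and limma-voom likewise called 0 of 43, beside 0.419% and 0.0303% of all genes. At an unadjusted p under 0.05 each had 1 of 43, beside 704 and 782 of all 19809 genes in the same order. In edgeR's test with the cortical level as covariate 6 of 43 had an unadjusted p under 0.05, beside 1069 of all 19809 genes. With the choroid plexus level as covariate 3 of 43 did, beside 873. In both covariate fits 0 of 43 were called, beside 6 and 1 of all genes in the same order. Fold changes were negative for 28 and positive for 15. The median was −0.02 for the 9 tested genes of synthesis, transport and breakdown, −0.05 for the 19 G proteins and effectors and −0.05 for the 13 partners, on the log2 scale, beside 0.00 over all genes. The groups did not overlap for 5 of the 43 genes, beside 8.93% of all 19809, so a separation of this kind was close to its share over all genes. Overexpression was lower (4.11% of all genes) for Ddc, Rapgef4, Gnai3 and Adarb1 and higher (4.81%) for Rapgef3, another cyclic AMP-activated exchange factor named here after its values were seen. Rapgef3 had 25.1 ± 1.28 CPM in overexpression and 23.6 ± 0.190 CPM in control (SD, n = 3 each).

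Among breakdown and synthesis genes, Maoa, the monoamine oxidase with the highest affinity for serotonin, had 44.3, 41.1 and 39.6 CPM in overexpression, against 50.5, 44.1 and 43.3 CPM in control. Maob, the other monoamine oxidase, had 27.2, 28.8 and 21.5 CPM in overexpression, against 30.5, 28.7 and 28.6 CPM in control. Ddc, the decarboxylase of the last step of serotonin and dopamine synthesis, had 8.15, 8.66 and 8.91 CPM in overexpression, against 9.34, 10.5 and 9.22 CPM in control. The Ddc groups did not overlap, but its log2 fold change was −0.18 (SE 0.11), with an adjusted p of 1.0 in edgeR's quasi-likelihood test. Slc29a4, a low-affinity transporter of serotonin named here after its values were seen, had 5.16, 15.9 and 3.12 CPM in overexpression, against 4.79, 5.85 and 5.88 CPM in control, with its highest value in the library highest in choroid plexus markers.

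Of the effectors, Rapgef4, a cyclic AMP-activated exchange factor, had 939, 823 and 964 CPM in overexpression, against 1150, 988 and 1035 CPM in control. In the fit without a covariate Rapgef4 had the smallest p of the pathway, 0.0535 unadjusted in edgeR's quasi-likelihood test. Its log2 fold change was −0.22 (SE 0.10), and its groups did not overlap. Gnai3, an inhibitory G protein subunit, had 37.1 ± 1.68 CPM in overexpression and 40.4 ± 1.44 CPM in control, and Plcb3, a phospholipase C driven by Gq, had 18.3 ± 2.97 and 21.5 ± 2.01 CPM in overexpression and control (SD, n = 3 each). Among receptor partners, Adarb1, an enzyme that edits Htr2c transcripts, had 151, 172 and 180.6 CPM in overexpression, against 200.1, 180.7 and 189 CPM in control. The Adarb1 groups thus came within 0.1 CPM of meeting, with a log2 fold change of −0.18 (SE 0.09). Arrb1, a beta-arrestin, had 317 ± 16.8 CPM in overexpression and 342 ± 12.2 CPM in control, and Dlg4, a postsynaptic scaffold, had 661 ± 26.2 and 701 ± 45.8 CPM in overexpression and control (SD, n = 3 each).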

How the data were processed

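The authors' deposited files give whole-number counts per Ensembl gene, 1 file a sample, not normalized. Per the labels' protocols, RNA was extracted with Trizol and stranded TruSeq libraries were built. The submitters' processing notes name STAR 2.5.3a, FastQC 0.11.5, DESeq 1.16.1, Cuffnorm and build mm10, without roles. How reads were counted, with which strand setting and annotation, is not stated there. Symbols, coordinates and lengths came from GENCODE M21, which matched 55154 of 55335 identifiers; the rest held at most 0.0129% of a library. No replicates were alike within sampling noise (chi-square of 19.1 to 49.6 per degree of freedom), so none were merged.

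Groups, set by title, were compared with edgeR 4.0.16 in R 4.3.3 (TMM factors, filterByExpr, robust quasi-likelihood, two-sided, all 6 samples), a fit tested on simulated data. CPM use TMM-adjusted totals and log2 CPM a prior count of 2. The SE is the absolute log2 fold change over the square root of F. DESeq2 1.42.0 and limma 3.58.1 were among 16 alternatives. The receptor genes and lists were chosen with earlier results of these data known. Named besides the receptors and Pde5a are the 3 members of each pathway list with the smallest p, the first 2 members of a marker list set beside a receptor, and the 3 genes nearest in profile, and any other gene is said to be named after its values were seen.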

Additional observations from a re-analysis of the deposited data

How the results depend on the processing

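Under 16 alternatives, 132 of 160 receptor fold changes kept their direction, 28 turned, and 0 passed the threshold, with a smallest adjusted p of 0.693 in edgeR's quasi-likelihood test. Htr4 and Htr7 were negative in all 16. Log2 fold changes that turned were as follows. Htr3a was 0.058 in limma-voom, 0.042 with the replicate block, 0.066 with choroid plexus marker level added as a covariate and 0.21 without overexpression replicates 1 and 2, which were rich in those markers. With those last 2 settings Htr1d was −0.29 and −0.41, and Htr2c −0.47 and −0.70. With a covariate for cortical marker level, Htr1a was −0.18, Htr1b 0.15, Htr1f −0.0055, Htr2a −0.014 and Htr6 0.056. Leaving out 1 library at a time gave ranges of −0.25 to 0.50 for Htr1a, −0.27 to 0.20 for Htr1b, −0.26 to 0.50 for Htr1d, −0.11 to 0.27 for Htr1f, −0.073 to 0.21 for Htr2a, −0.16 to 0.41 for Htr2c, −0.33 to 0.58 for Htr3a and −0.14 to 0.12 for Htr6. The cause of these turns was not tested.

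Genes called among all genes numbered 1 as reported, 83 with the DESeq2 Wald test, 6 with limma-voom, 3 with no filter on low counts, 3 with the replicate block, 6 with the cortical covariate, 5 without overexpression replicates 1 and 2, and from 1 to 2 with 1 library left out, the 2 being reached without control replicate 2 or control replicate 3. Same-numbered samples had deviations correlated at −0.02, 0.03 and 0.29, and differently numbered samples at −0.34 to 0.35. No sign of pairing by number was seen, but with 3 samples a group these values cannot decide it. By coding length, 2 of 10 places in the order of receptor levels were unchanged. Counting error weighs more on genes with few counts, such as Htr3a, with 47 to 132 counts a library.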
